A study of Homo sapiens with 3 samples.

Results

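The genes described here are 10 major heterogeneous nuclear ribonucleoprotein (hnRNP) genes, HNRNPA1, HNRNPA2B1, HNRNPC, HNRNPD, HNRNPF, HNRNPH1, HNRNPK, HNRNPL, HNRNPM and HNRNPU. Their members in the data are the edited clusters whose deposited gene name is exactly one of these symbols, so pseudogenes are left out. Replicates 1, 2 and 3 held 52, 50 and 52 such clusters, of 14295, 15181 and 11367 clusters in all. These 154 clusters of 40843 belong to 10 of 9904 gene names. The rule of choice used gene names and no measured value, though the genes were chosen with earlier results of these data known.

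The data come from STAMP, in which an RNA-binding protein is fused to the cytidine deaminase APOBEC1 and marks the RNA it contacts by C-to-U editing. The single group comprised 3 replicates of HEK293T cells (named HEK293XT in the labels), a human embryonic kidney line of genotype WT, with a doxycycline-induced RBFOX2-APOBEC1 fusion and a time of 72 h. The treatment field of the labels reads transient transfection, whereas their growth protocol is for stable lines, and whether a line was 1 clone is not stated. There was no second condition, cells with APOBEC1 alone were not analysed here, and no table of expression was used to check the cell line against markers.

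hnRNP proteins coat nascent RNA in the nucleus and take part in splicing, 3′ end formation, export, stability and translation of messenger RNA. Many of them control the level of their own transcripts, often through alternative exons or the 3′ untranslated region. RBFOX2 is a splicing regulator that binds GCAUG elements, and RBFOX proteins also occur in a large assembly of splicing regulators (LASR) that includes the products of HNRNPM, HNRNPH1 and HNRNPC. The transcripts of hnRNP genes are therefore described here as RNAs that carry editing, not as the proteins they encode.

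All 10 genes carried clusters in each of the 3 replicates. So did 13 of 15 other hnRNP or related genes and 11 of 12 genes of SR and TRA2 splicing factors. The same share over all gene names is not given here. The hnRNP clusters numbered 51.3 ± 1.15 per replicate (SD, n = 3). They made up 0.364%, 0.329% and 0.457% of all clusters in replicates 1, 2 and 3, but 1.03%, 0.728% and 1.01% of all edited bases, a mean of 0.923% ± 0.170 (SD, n = 3). Their share of the covered C bases, which are the C positions summed over all reads of a cluster, was 1.70%, 1.08% and 1.57%. The hnRNP clusters thus held more of the editing events and of the coverage than of the cluster count in every replicate. A bulk measurement of this kind does not separate more RNA from more cells or more RNA per cell, and the depth of each library cannot be read from its clusters.

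HNRNPC, a nuclear protein that packages nascent transcripts, had the most clusters of the 10 genes in replicates 1 and 3 and shared the highest number with HNRNPU in replicate 2, with 11, 8 and 12. HNRNPK, a poly(C)-binding protein, had 8, 7 and 8, and HNRNPH1, which binds G-rich elements, had 6, 5 and 6. HNRNPA2B1, a regulator of splicing and RNA transport, had 7, 5 and 4, and HNRNPU, a chromatin-associated scaffold protein, had 5, 8 and 4. Cluster numbers of HNRNPC, HNRNPA2B1 and HNRNPU varied more between replicates (SD of 2.08, 1.53 and 2.08) than those of HNRNPK and HNRNPH1 (SD of 0.577 each).
HNRNPF, a relative of HNRNPH1 that also binds G-rich elements, had 4, 3 and 4 clusters, and HNRNPD, the AU-rich element binding protein AUF1, had 3, 5 and 3. HNRNPM, a splicing regulator of the LASR assembly, had 5, 2 and 4. HNRNPA1, a splicing repressor, had 2, 5 and 1, and HNRNPL, which binds CA repeats, had 1, 2 and 6. For HNRNPA1 and HNRNPL the SD over replicates (2.08 and 2.65 clusters) was close to the mean (2.67 and 3.00 clusters), so their cluster numbers are not well determined by 3 replicates.

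**Figure D1:**
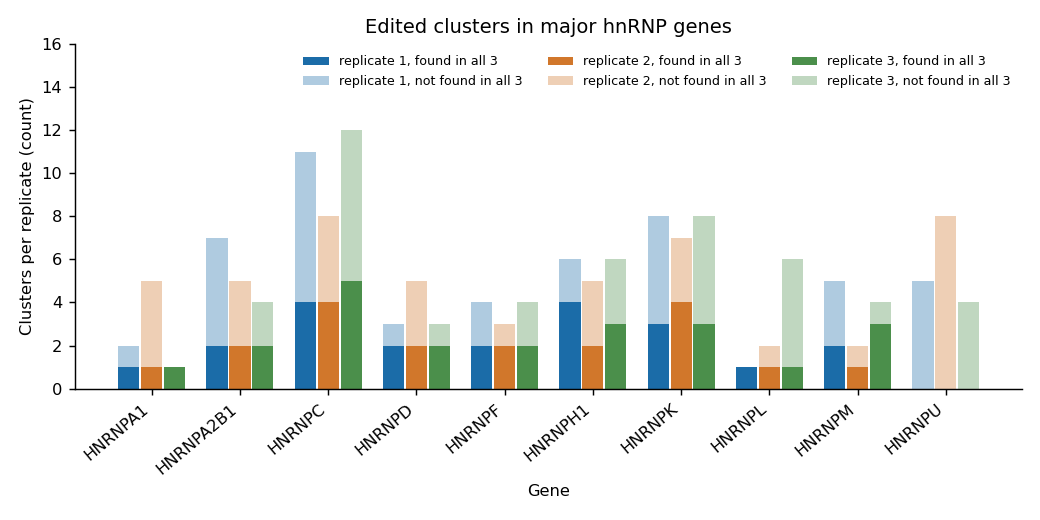
Number of edited clusters per gene (y axis, count) in the 3 replicates, with the dark part of each bar for clusters that overlap a cluster in both other replicates. HNRNPC had 11, 8 and 12 clusters, and HNRNPU had none that was found in all 3 replicates.

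The editing events were concentrated in HNRNPC more than the clusters were. Its clusters held 474, 343 and 344 edited bases, against 1047, 812 and 777 for all 10 genes, which is 45.3%, 42.2% and 44.3% (mean 43.9% ± 1.54, SD, n = 3). By edited reads the share was 46.3%, 46.3% and 48.9%. HNRNPK held 141, 97 and 64 edited bases, HNRNPH1 held 121, 93 and 103, and HNRNPA2B1 held 88, 80 and 41. HNRNPC had 3.36, 3.54 and 3.34 times the edited bases of the gene next to it in replicates 1, 2 and 3. The remaining genes held between 12 (HNRNPL, replicate 2) and 62 (HNRNPF, replicate 3) edited bases. Since an edited base count rises with the number of reads, it is not a rate, and the order of the genes by rate was different.

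The rate was taken as the pooled edit fraction, the edited bases over the covered C bases summed over the clusters of a gene. Over all hnRNP clusters it was 0.570%, 0.631% and 0.640%, a mean of 0.614% ± 0.0385 (SD, n = 3). Over all clusters of the data it was 0.957% ± 0.0348 (SD, n = 3), higher than the hnRNP value in each replicate. The hnRNP clusters were also deeper, with a median read depth of 170 ± 38.6 (SD, n = 3) against 23.6 ± 2.21 for all clusters. At a mean read depth of 50 to 200 the median edit fraction of hnRNP clusters was 0.954% ± 0.0410 (55 clusters), against 0.833% ± 0.00595 for all clusters. In the deepest class, from a depth of 200, it was 0.581% ± 0.0989 (70 clusters) against 0.524% ± 0.0167, and at 10 to 50 it was 2.25% ± 0.473 (27 clusters) against 1.79% ± 0.0309. The median lay above that of all clusters in every replicate in the 2 deeper classes, though by more than the SD of the hnRNP value at 50 to 200 alone, and at 10 to 50 it lay below in replicate 1. The pooled edit fraction behaved differently in the deepest class, where it was 0.516%, 0.563% and 0.522% for hnRNP clusters (0.534% ± 0.0257) and 0.620% ± 0.0101 for all clusters, lower in each replicate. At 50 to 200 it was 0.957% ± 0.0995 against 0.856% ± 0.0194, and lower than that of all clusters in replicate 2. The classes match the mean read depth, not the reads on C bases, which enter the edit fraction. From a depth of 200, covered C bases per C position were under 0.1 of that depth in 22.7% ± 4.62 of hnRNP clusters. For all clusters this was 13.3% ± 1.499, and its part in the medians was not tested. These differences in edit fraction were described and not tested, because there is 1 condition with 3 replicates.

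HNRNPF had the highest pooled edit fraction, with 1.12%, 0.958% and 1.44% (mean 1.17% ± 0.246, SD, n = 3). It was no longer the highest when clusters under a depth of 50 were left out, at 0.903% ± 0.283 against 0.971% ± 0.259 for HNRNPH1. Over all clusters HNRNPH1 followed with 0.704%, 0.998% and 1.25% (0.985% ± 0.274). The values of these related genes overlapped. HNRNPM had 0.698%, 0.797% and 0.875% (0.790% ± 0.0888), and HNRNPU had 0.502%, 1.15% and 0.544% (0.734% ± 0.365). HNRNPU had the widest spread of the 10 genes, and its mean was 0.523% without replicate 2. The middle of the order comprised HNRNPL with 0.761%, 0.633% and 0.581%, HNRNPD with 0.477%, 0.674% and 0.787%, and HNRNPA2B1 with 0.514%, 0.848% and 0.463%. Their means were 0.658% ± 0.0923, 0.646% ± 0.157 and 0.608% ± 0.209.
The lowest means belonged to HNRNPC, HNRNPK and HNRNPA1. HNRNPC had 0.619%, 0.520% and 0.542% (0.560% ± 0.0521), HNRNPK had 0.423%, 0.567% and 0.627% (0.539% ± 0.105), and HNRNPA1 had 0.388%, 0.491% and 0.469% (0.449% ± 0.0543). None of the 9 pairs of neighbours in this order was separated, since the ranges over replicates overlapped in each. Of all 45 pairs of genes, 16 did not overlap. HNRNPF lay above HNRNPM, HNRNPL, HNRNPD, HNRNPA2B1, HNRNPC, HNRNPK and HNRNPA1 in all replicates. HNRNPH1 and HNRNPM each lay above HNRNPC, HNRNPK and HNRNPA1, while HNRNPU, HNRNPL and HNRNPC lay above HNRNPA1 only. The gene values were chosen from clusters that had passed a depth-dependent threshold, and the part of read depth in their order was not tested.

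**Figure D2:**
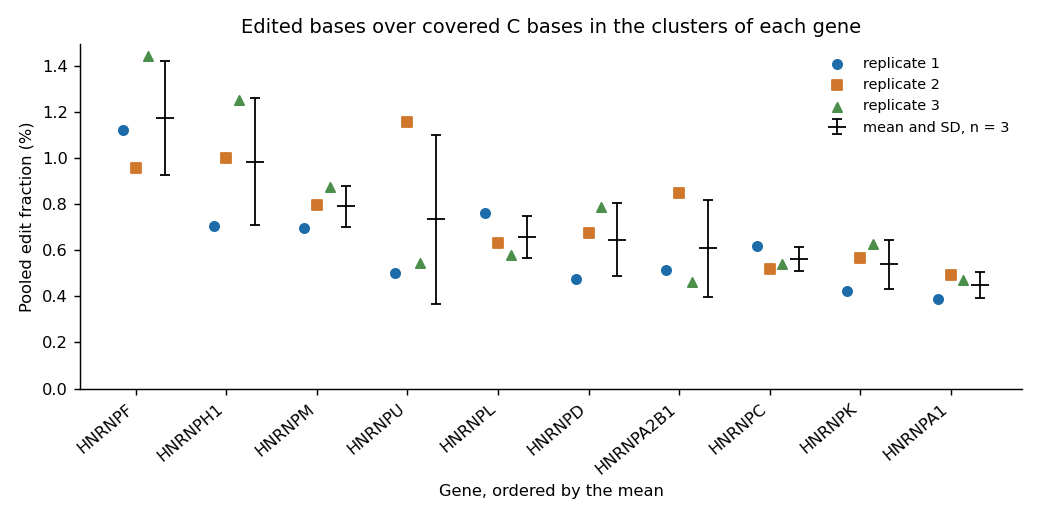
Pooled edit fraction of each gene (y axis, percent of covered C bases edited), with 1 point per replicate and the mean and SD over 3 replicates beside them, for genes in the order of their means. HNRNPF (mean 1.17%) and HNRNPA1 (mean 0.449%) do not overlap, whereas all neighbours in the order do.

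Reads that were edited in HNRNPF often carried several edits. HNRNPF had 2.25, 2.27 and 2.58 edited bases per edited read (mean 2.37 ± 0.186, SD, n = 3), the highest of the 10 genes. HNRNPA1 had the lowest mean, with 1.37, 1.08 and 1.15 (1.20 ± 0.148), and HNRNPC had 1.49 ± 0.0882. Over all hnRNP clusters the value was 1.604 ± 0.0664, against 1.64 ± 0.0411 for all clusters, a difference smaller than either SD. The clusters of the hnRNP genes were poorer in C, with 15.5 ± 0.791 C bases per 100 bases against 19.7 ± 0.384. HNRNPA2B1 clusters were the poorest, with 11.9 ± 0.920, while HNRNPC clusters, with 19.3 ± 0.312, were close to the value of all clusters.

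To see which clusters recurred, each was compared with the clusters of both other replicates, and an overlap of 1 base or more on its strand was required in both. This was met by 21 of 52, 19 of 50 and 22 of 52 hnRNP clusters, a mean of 40.2% ± 2.16 (SD, n = 3). The 95% Wilson intervals, which cover counting error only, were 28.2% to 53.9%, 25.9% to 51.8% and 29.9% to 55.8%. For all clusters the shares were 10.6%, 9.86% and 13.1%, below the intervals of the hnRNP genes in each replicate. The intervals take clusters as independent, though many lie side by side in the same gene. A match in all 3 replicates counts in each of them, so the 3 shares and their SD are not independent of each other. The value depends on the overlap required. With an overlap of 50% of both clusters it was 12.4% ± 3.28 for hnRNP clusters and 5.30% ± 0.830 for all clusters, and no hnRNP cluster had identical borders in all 3 replicates. The share depended on how many edited reads a cluster had. Among clusters with at least 11 edited reads, 27 of 34 hnRNP clusters were found in all 3 replicates (79.6% ± 2.47, against 80.0% ± 3.71 for all clusters). With 2 to 5 edited reads, 17 of 74 were found (22.9% ± 5.92, against 8.06% ± 2.53), and with 6 to 10, 15 of 24 (61.5% ± 16.7, against 41.6% ± 5.65). With 1 edited read, 3 of 22 were found (15.3% ± 16.8, against 2.24% ± 0.490), and the hnRNP value spread more than its mean. By read depth, the share of the deepest class (from 200) was 44.0% ± 6.93 for hnRNP clusters and 46.2% ± 4.69 for all clusters. At 50 to 200 it was 41.1% ± 9.41 against 22.2% ± 3.40, higher in each replicate. At 10 to 50 it was 28.8% ± 25.8 against 6.86% ± 2.31, but 0% against 5.48% in replicate 1. On average, hnRNP clusters were thus found again more often than all clusters at intermediate support, while replicate 1 went the other way at 10 to 50. Their mean share was not higher in the classes with most edited reads or the greatest depth.

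When overlapping clusters of all replicates were joined, the hnRNP clusters formed 89 loci. Of these, 20 were present in all 3 replicates, 10 in 2 and 59 in 1. The share in all 3 was 22.5%, against 4.77% of 33244 loci over the data. HNRNPC and HNRNPK had 4 loci each in all 3 replicates, HNRNPH1 had 3, HNRNPA2B1, HNRNPF and HNRNPM had 2 each, and HNRNPA1, HNRNPD and HNRNPL had 1 each. HNRNPU was the only one of the 10 genes without such a locus. Positions below are in the build hg19, which the submitters' processing notes name, counted from 1 on the assumption that the deposited starts count from 0. The sequences of the loci are not printed, because no genome of this build was used here.

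Exons are numbered in the deposited names from 0 in the direction of the chromosome. In 1914 of 1914 minus-strand genes and 1978 of 1981 plus-strand genes with clusters in several exons, the number rose with the position. In a gene on the minus strand, exon_0 is thus the most 3′ exon of the annotation used. HNRNPA2B1, HNRNPC, HNRNPD, HNRNPF, HNRNPH1, HNRNPK, HNRNPL and HNRNPU lie on the minus strand, and 31 of 45, 24 of 43 and 28 of 47 of their clusters lay in exon_0. The mean share was 61.4% ± 6.73 (SD, n = 3), against 59.5% ± 2.44 for all minus-strand clusters, a difference smaller than the SD. By edited bases, however, exon_0 held 83.8% ± 3.67 of the pooled editing of these genes, against 56.3% ± 4.37 over all minus-strand clusters. The pooled value does not hold for each gene, since HNRNPL and HNRNPU had no cluster in exon_0. HNRNPC weighed heavily in it, with 45.3%, 42.2% and 44.3% of the edited bases of all major hnRNP genes in replicates 1, 2 and 3. HNRNPA1 and HNRNPM lie on the plus strand, and none of their 19 clusters was in exon_0, which there is the most 5′ exon. Over all plus-strand clusters the share was also low, at 3.97% ± 0.257 (812 of 20555). Of the 20 loci in all 3 replicates, 14 lay in exon_0 of a minus-strand gene. The same share over all 1586 loci in all 3 replicates is not given here.

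The stretch with most edited bases lay in exon_0 of HNRNPC, on chromosome 14 from 21678751 to 21679395, a length of 645 bases. Its borders were set from these data, as the outer ends of the exon's loci found in all 3 replicates. Only loci with at least 11 edited reads over the replicates were used, so a high share inside is partly built in. The stretch held 432, 325 and 299 edited bases. This is 91.1%, 94.8% and 86.9% of those in the clusters of the gene (mean 90.9% ± 3.92, SD, n = 3). Clusters covered 525, 435 and 420 of its bases. The edited bases in HNRNPC clusters thus lay mostly within 1 short part of the 3′ exon in each replicate. Edits outside clusters were not counted. By rate the stretch was not the highest. Its pooled edit fraction was 0.597%, 0.507% and 0.552%, below the 1.06%, 0.842% and 1.45% of the HNRNPF stretch described below.
The stretch comprised 3 loci whose levels differed. The locus nearest to the 3′ end, from 21678751 to 21678960, had an edit fraction of 1.20%, 1.32% and 1.81% (mean 1.44% ± 0.325). The next, from 21678991 to 21679230, had 0.712%, 0.679% and 0.745% (0.712% ± 0.0332). The third, from 21679261 to 21679395, had 0.350%, 0.274% and 0.349% (0.324% ± 0.0437). Across these 3 loci the edit fraction thus fell from the 3′ side to the 5′ side in every replicate, and their ranges did not overlap. Between the outer loci it fell by 3.42, 4.81 and 5.19 times in replicates 1, 2 and 3. Covered C bases rose along the same direction, from 9184 to 27824 and 35393 in replicate 1, from 4251 to 25934 and 33964 in replicate 2 and from 2320 to 19191 and 32697 in replicate 3. The part of coverage in the difference was not tested. Counted per read, the edited read share of the first locus was 7.60%, 7.06% and 4.85%, that of the second 6.86%, 6.69% and 6.77%, and that of the third 4.15%, 3.79% and 4.37%. By that measure the first and second loci overlapped, and the third stayed below both. The fall in edit fraction did not continue in exon_0 clusters outside the stretch, none of which was found in all 3 replicates. On the 5′ side they had 0.716% in replicate 2 and 0.609% and 0.583% in replicate 3, above the third locus. On the 3′ side they had 0.848% to 1.63% in replicate 1 and 0.714% and 2.63% in replicate 3, on both sides of the first locus.
The cluster with most edited reads of all hnRNP genes lay in the second locus. In replicate 1 it spanned 21678991 to 21679230 with 129 of 1880 reads edited (95% Wilson interval 5.80% to 8.09%).

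**Figure D3:**
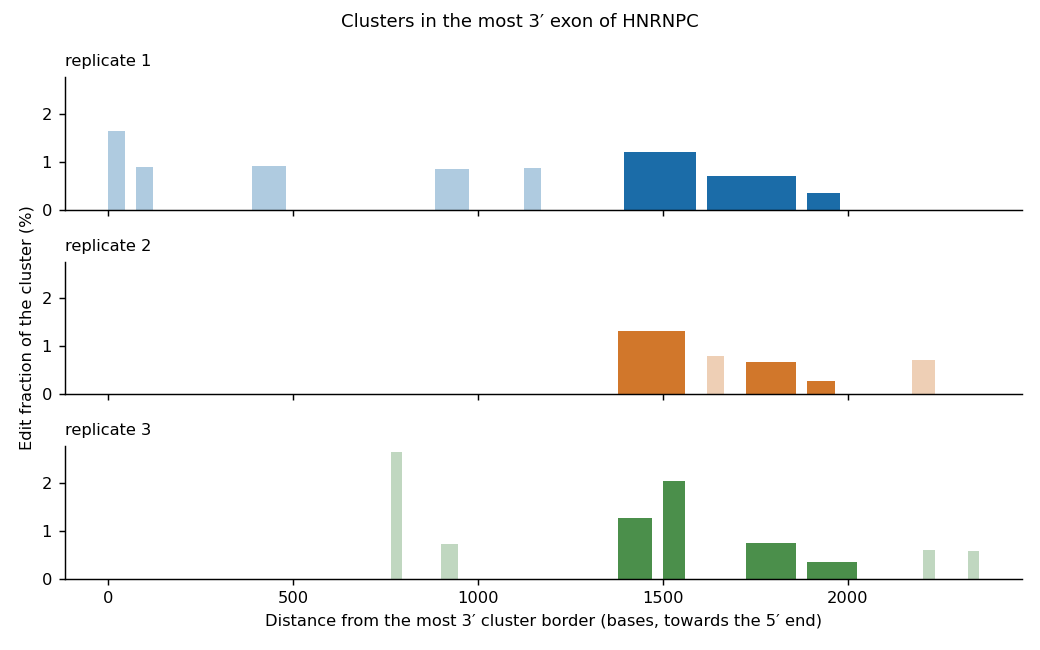
Clusters in exon_0 of HNRNPC by replicate, placed by their distance from the most 3′ cluster border (x axis, bases) and as high as their edit fraction (y axis, percent), with dark bars for clusters found in all 3 replicates. The 3 loci of the stretch fall from the 3′ to the 5′ side in each replicate, with means of 1.44%, 0.712% and 0.324%. Pale bars outside them do not continue the fall.

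In HNRNPH1 the same rule for borders gave a stretch in exon_0, on chromosome 5 from 179041405 to 179041944 (540 bases). It held 86.8%, 93.5% and 96.1% of the edited bases in the clusters of the gene (92.1% ± 4.82). The main locus there, from 179041555 to 179041944, had an edit fraction of 0.625%, 0.954% and 1.20% (0.927% ± 0.290) with 58, 44 and 40 edited reads. Its values differed by more between replicates than those of the main HNRNPC locus. The neighbouring loci from 179041405 to 179041524 and from 179041240 to 179041344 rested on 14 and 9 edited reads over the 3 replicates.
In HNRNPF the clusters of every replicate lay in exon_0. The stretch set by the same rule, from 43881771 to 43882145 on chromosome 10, held 72.2%, 86.0% and 80.6% of their edited bases (79.6% ± 6.95). The locus from 43881966 to 43882145 had an edit fraction of 1.02%, 0.584% and 1.03% (0.879% ± 0.255), with 9, 16 and 9 edited reads. The locus from 43881771 to 43881935 had 1.11%, 2.60% and 3.34% (2.35% ± 1.14) with 8, 4 and 7. The higher fraction of HNRNPF among the 10 genes thus rests on few reads per replicate.

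HNRNPA1 had 1 locus in all 3 replicates, in exon_24 on chromosome 12 from 54678628 to 54678777. Its edit fraction was 0.381%, 0.426% and 0.469% (0.426% ± 0.0441), with 40, 25 and 20 edited reads. It held 98.2%, 66.7% and 100% of the edited bases of the gene, so its level varied less between replicates than its share of the gene.
HNRNPA2B1 had its main locus in exon_0 on chromosome 7 from 26231708 to 26231857, with 0.431%, 0.746% and 0.396% (0.524% ± 0.193) and 34, 22 and 26 edited reads. A second locus, from 26229833 to 26229982, had 1.04%, 2.65% and 3.57% (2.42% ± 1.28) from 3, 8 and 2 edited reads. HNRNPD had 1 locus, in exon_0 on chromosome 4 from 83275092 to 83275241, with 0.441%, 0.688% and 0.724% (0.618% ± 0.154) and 18, 16 and 16 edited reads.

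HNRNPK carried 4 loci in all 3 replicates on chromosome 9, of which 3 were in exon_0. The locus from 86583779 to 86583988 had an edit fraction of 0.354%, 0.450% and 1.36% (0.720% ± 0.553), with 27, 17 and 2 edited reads. Replicate 3 stood apart there on 2 reads, so the locus is well determined only in the others. Its cluster also covered 60 bases of the locus, against 195 and 135 in replicates 1 and 2. The locus from 86584034 to 86584213 had 0.528%, 1.03% and 1.43% (0.997% ± 0.451) with 19, 3 and 7 edited reads. The locus from 86583284 to 86583373 had 1.30%, 2.64% and 10.5% (4.82% ± 4.98) with 3, 5 and 2 edited reads, the widest spread of the 20 loci. The fourth lay in exon_2 from 86585057 to 86585146 and also named MIR7-1, a microRNA gene hosted by HNRNPK. It had 0.305%, 0.536% and 0.341% (0.394% ± 0.125) with 10, 15 and 8 edited reads. The 4 clusters that named MIR7-1 spanned 645 bases, against 110 bases of its precursor in RefSeq, so the name alone does not place a cluster on the precursor.

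HNRNPL had 1 locus in all 3 replicates, in exon_8 on chromosome 19 from 39327104 to 39327238, with 0.761%, 1.07% and 1.13% (0.986% ± 0.198) and 13, 4 and 8 edited reads. All clusters of the gene at this locus also named AC104534.3, as did 8 of its 9 clusters in total. HNRNPM had its main locus in exon_30 on chromosome 19 from 8553717 to 8553911, with 0.797%, 0.881% and 0.787% (0.822% ± 0.0516) and 6, 13 and 9 edited reads. It was among the least variable of the 20 loci. A second HNRNPM locus, in exon_10 from 8531165 to 8531254, rested on 2 edited reads in each replicate (0.670% ± 0.227).
HNRNPU differed from the other genes in having no locus in all 3 replicates. Its best supported clusters lay in exon_3 on chromosome 1, from 245017649 to 245017753, with 17 of 685 reads edited in replicate 1 and 13 of 427 in replicate 3. Edit fractions were 0.348% and 0.432%, and replicate 2 had no cluster at this position. Of 17 HNRNPU clusters, 12 also named HNRNPU-AS1, and the 5 that named HNRNPU alone had a mean pooled edit fraction of 2.33% in place of 0.734%. That mean rests on replicate 2, whose only such cluster, in exon_23, had 5.56% from 2 edited reads.

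Over the 20 loci, mean edit fractions ran from 0.324% to 4.82%, with a median of 0.903%. The highest replicate exceeded the lowest by 1.10 to 8.08 times, with a median of 1.83. No locus had the same cluster borders in all 3 replicates, so these values come from partly different bases. In the main HNRNPC locus clusters covered 240, 180 and 135 bases in replicates 1, 2 and 3. Replicate 3 had the highest edit fraction at 16 of the 20 loci and replicate 1 the lowest at 13. Over all 1586 loci in all 3 replicates, replicate 3 was highest at 46.6% and replicate 1 lowest at 44.4%. Covered C bases went the other way, with replicate 3 lowest at 14 and replicate 1 highest at 15 of the 20 hnRNP loci. By edited read share replicate 3 was highest at 9 of the 20. The parts of coverage and of the bases covered in these differences were not tested.

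**Figure D4:**
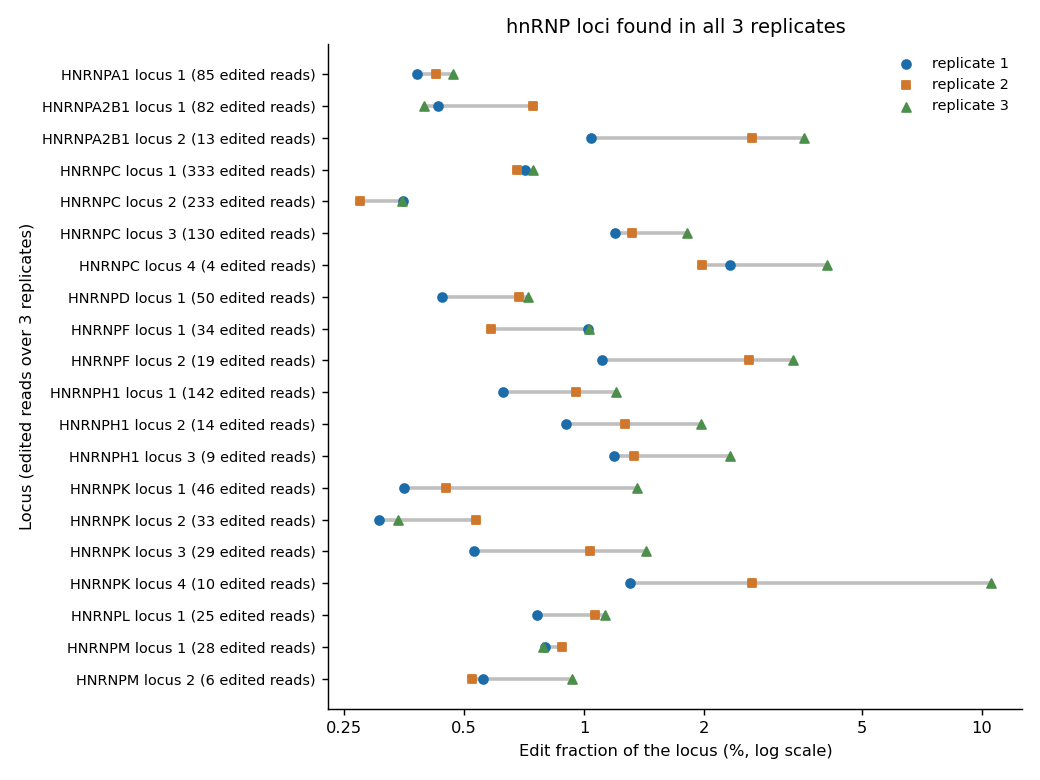
Edit fraction (x axis, percent, log scale) of the 20 hnRNP loci found in all 3 replicates, with 1 point per replicate, a grey line from the lowest to the highest and the edited reads over 3 replicates beside each gene name. The main HNRNPC locus (333 edited reads) varied least, and the HNRNPK locus with 10 edited reads varied most.

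Whether replicates differed by more than counting error was tested at intervals with the same borders, since only there are the reads of the same bases compared. No hnRNP interval had the same borders in all 3 replicates, so pairs of replicates were tested with two-sided Fisher's exact tests of edited and unedited reads, with Benjamini-Hochberg adjustment over all intervals of a pair. Of 6 tests in hnRNP genes, 0 had an adjusted p under 0.05 and 0 an unadjusted p under 0.05. Over all intervals tested, 0.174% (1 of 575) of replicates 1 and 2, 0.457% (2 of 438) of replicates 1 and 3 and 0.594% (3 of 505) of replicates 2 and 3 were called. At these background shares 6 tests would rarely give any call, so the count of 0 cannot tell hnRNP intervals from the others. Borders follow from the windows that passed the filter in each replicate, so intervals with the same borders are a selected set. A low share of calls among them may be partly built in, and intervals with other borders were not tested.
The largest of these intervals was in HNRNPC from 21679096 to 21679230, where 114 of 1618 reads (7.05%) were edited in replicate 2 and 86 of 1271 (6.77%) in replicate 3 (exact p = 0.825, adjusted p = 1). In HNRNPA2B1 from 26231708 to 26231797, 23 of 1269 reads (1.81%) were edited in replicate 1 and 22 of 1113 (1.98%) in replicate 2 (exact p = 0.766, adjusted p = 1). In HNRNPK from 86585102 to 86585131, 10 of 809 reads (1.24%) in replicate 1 and 8 of 595 (1.34%) in replicate 3 were edited (exact p = 1). The remaining 3 intervals, in HNRNPA2B1, HNRNPC and HNRNPH1, had 1 to 4 edited reads per replicate, so that moderate differences were not detectable at this depth.

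A part of the hnRNP clusters had far fewer reads on their C bases than their mean read depth. Coverage per C base, which divides the covered C bases by the number of C positions, was under 0.1 of the mean read depth in 17 of 154 hnRNP clusters. The median ratio was 0.0276 in these and 0.993 in the other 137. The share was 11.1% ± 4.35 (SD, n = 3) per replicate, against 1.22% ± 0.270 for all clusters. From a depth of 200 it was 22.7% ± 4.62 for hnRNP clusters (16 of 70) and 13.3% ± 1.499 for all clusters (282 of 2084).
The 17 clusters had at most 3 edited reads each, and their median edit fraction was 2.82%, against 0.835% in the other 137. Of them, 8 lay in exon_20 of HNRNPC between 21731106 and 21731960, where mean read depth was 553 to 772 but a C base was covered by 6.07 to 24 reads. The edit fractions there were 1.04% to 4.40%, with 1 to 3 edited reads in each cluster. The HNRNPC locus from 21731826 to 21731870, one of the 20 in all 3 replicates, is part of this set, with 1, 2 and 1 edited reads (2.80% ± 1.13). In HNRNPH1 the set comprised 3 clusters in intron_5 and 2 in exon_6. In HNRNPA1 it comprised 2 clusters in intron_21, at mean read depths of 760 and 866 and 5 and 12 reads per C base. HNRNPD had 1 such cluster, in exon_0 from 83275902 to 83276021, in which a single read carried 7 edits, and HNRNPU had 1 in exon_23. Why the coverage of C bases and the mean read depth part in these clusters was not tested, and without them 43.1% of hnRNP clusters were found in all 3 replicates.

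**Figure D5:**
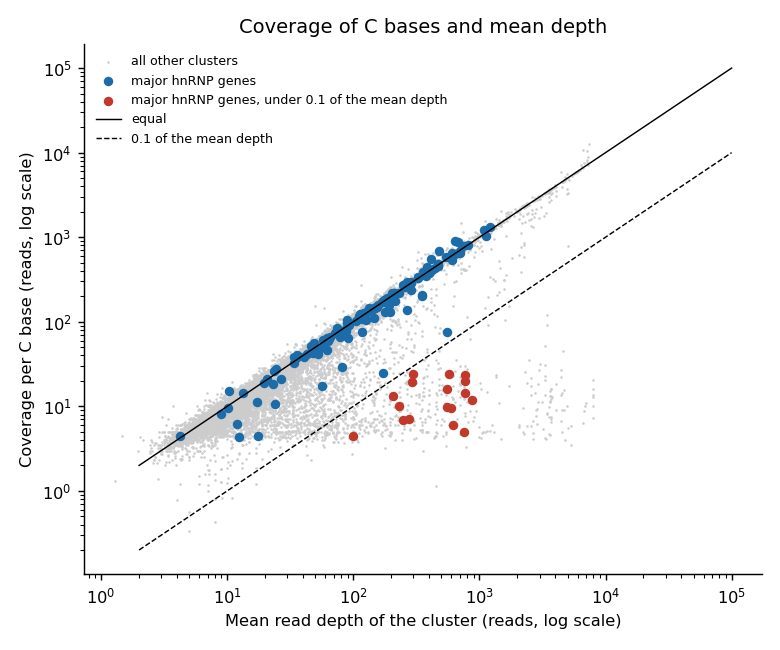
Coverage per C base (y axis, reads, log scale) against the mean read depth (x axis, reads, log scale) of clusters of all replicates, in grey for all other genes, blue for hnRNP clusters and red for the 17 hnRNP clusters under 0.1 of the mean read depth (dashed line). Most hnRNP clusters lie on the line of equal values, and the red points lie at depths of 99.4 to 866 with at most 24.3 reads per C base.

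Of the 154 hnRNP clusters, 9 were intronic (5.84%), against 856 of 40843 clusters over the data (2.10%). In replicates 1, 2 and 3 these were 4 of 52, 4 of 50 and 1 of 52, against 310 of 14295, 353 of 15181 and 193 of 11367. The mean share was 5.87% ± 3.42 against 2.06% ± 0.327 (SD, n = 3), and the excess lay mainly in replicates 1 and 2. Each of the 9 rested on 1 to 3 edited reads, and 5 were among the 17 clusters of low coverage per C base. In HNRNPU, replicate 1 had clusters in intron_2 from 245012159 to 245012188 (3 of 18 reads edited) and from 245013659 to 245013718 (1 of 13). Replicate 2 had clusters in intron_1 from 245010686 to 245010730 (1 of 13) and in intron_2 from 245013614 to 245013643 (1 of 19). HNRNPH1 had 1 cluster in intron_5 in each replicate, from 179047264 to 179047308 (1 of 280 reads), from 179047399 to 179047443 (1 of 299) and from 179047369 to 179047413 (1 of 209). HNRNPA1 had 1 in intron_21 in replicate 1, from 54677409 to 54677438 (1 of 760), and 1 in replicate 2, from 54677334 to 54677378 (2 of 867), which also named COPZ1 and 4 other genes. None of the intronic clusters was found in all 3 replicates.

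For comparison, 15 other hnRNP or related genes had 64, 54 and 55 clusters, and 10 of them had a locus in all 3 replicates (HNRNPA0, HNRNPAB, HNRNPDL, HNRNPH3, HNRNPR, HNRNPUL1, SYNCRIP, PCBP1, PCBP2 and PTBP1), against 9 of the 10 major genes. Their pooled edit fraction was 0.905% ± 0.0501 (SD, n = 3), above the 0.614% ± 0.0385 of the major genes in each replicate. Their median depth was 84.5 ± 17.6, against 170 ± 38.6. For 12 genes of SR and TRA2 splicing factors, which often act against hnRNP proteins at exons, the pooled edit fraction was 0.826% ± 0.105 and 24.6% ± 3.54 of clusters were found in all 3 replicates. Of these 12 genes, 8 had a locus in all 3 replicates. The share of all gene names with such a locus is not given here. These lists were not tested against each other or against the major genes.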

How the data were processed

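Clusters of C-to-U editing were deposited for 3 replicates of 1 condition, and the groups were taken from the labels. The submitters' processing notes name STAR, an RNA-seq aligner, and the build hg19, and a version of STAR is not given in the sources used here. The labels name a stranded kit for mRNA or total RNA. The authors detected edits with SAILOR, which removes common SNPs, and filtered windows of 30 bases in FLARE with a zero-truncated Poisson model at an adjusted p of 0.1, joining windows within 15 bases. As deposited, each cluster has unscaled whole-number counts of its reads, edited reads, C positions, C bases read and edited bases. The edit fraction deposited by the authors equals the ratio of these counts in all clusters (0 exceptions). Mean read depth is a coverage signal of the authors, with no scaling for library size. The authors' score is a cumulative negative binomial probability between 0 and 1. Windows that failed the filter were not analysed here, and the depth of each library cannot be read from the clusters.

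Counts were summed per gene and replicate with Python 3.11.15, NumPy 2.4.6, pandas 2.3.3 and SciPy 1.17.1, and drawn with matplotlib 3.10.9. Values are mean and SD over 3 replicates, which share 1 condition, so no test between groups was made. Wilson 95% intervals cover counting error only, as PCR copies are not independent molecules. Fisher's exact tests compared replicates at identical intervals, over all genes. A test over 3 replicates was intended, but no hnRNP interval had the same borders in each, so that pairs were used after the values were seen. The genes named are the 10 members with their loci in all 3 replicates, their best supported clusters and intronic clusters, and list genes with such a locus. The members and lists were chosen with earlier results of these data known. Alternatives were minimum scores, depths and edited reads, exonic clusters, other averages, stricter overlap and leaving out each replicate. The code was tested on simulated data. Motifs were not searched, because no genome of the build was used here. A further list of genes of the LASR assembly is not reported here.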

Additional observations from a re-analysis of the deposited data

Results flagged for a closer look

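Clusters also lay in pseudogenes of the hnRNP genes, which the report's comparisons leave out. They held 37, 39 and 41 edited reads in replicates 1, 2 and 3, a mean of 39, in 5, 6 and 9 clusters. HNRNPCP2, a processed copy of HNRNPC, accounted for 25 edited reads in each replicate, in 3, 3 and 4 clusters with pooled edit fractions of 0.431%, 0.432% and 0.683%. HNRNPA1P33 and HNRNPA1P48 had 1 cluster each in every replicate. No control cells without the fusion were analysed here.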

How the results depend on the processing

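The number of hnRNP clusters fell from 51.3 to 34.0 per replicate with a score of at least 0.99, and stayed within 1.5 times under the other alternatives run. The pooled edit fraction of 0.614% became 0.906% as the median and 1.59% as the mean of the clusters, and 2.71% of reads were edited when reads were counted in place of bases. The share found in all 3 replicates (40.2%) was 42.7% for exonic clusters, 43.7% for clusters naming only the member gene, 43.1% without clusters of low coverage per C base, 12.4% with an overlap of 50% of both clusters and 0% with identical borders. Leaving out each replicate in turn gave 51.0 to 52.0 clusters, a pooled edit fraction of 0.601% to 0.636% and, found in both that remained, 48.0% to 54.8%. Of the values of single genes, 3 moved by more than their SD without leaving out a replicate: HNRNPF to 0.903% at a depth of at least 50, HNRNPK to 0.645% with a score of at least 0.99 and HNRNPU to 2.33% when clusters naming another gene were left out. The count of hnRNP intervals that differed between replicates was 0 under each alternative run, with 6 tests at most, too few to be informative. The restriction to clusters naming only the member gene, the coverage limit and the pairs of replicates were chosen after seeing the data. No paired analysis was possible because there is a single group. Clusters with 1 edited read, 22 of the 154, have an edit fraction set by a single read, and replicates overlap in few of them.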
